A study of Mus musculus with 14 samples.

Results

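Loss of the histone mark H3K27me3 in cells with a mutant histone was set against its loss under an enzyme inhibitor, in mouse cells labelled as PDGF neural stem cells. The comparison used 2 H3K27me3 ChIP-seq libraries of K27M cells in DMSO (K27M DMSO) and 2 of H3WT cells under EPZ6438 (H3WT EPZ), 4 of the 14 samples of the series. Their peak lists held 20880 of the 100123 peaks in the 12 lists analysed. K27M cells express histone H3.3 in which methionine replaces lysine 27, and H3WT cells express wild-type H3.3. H3WT EPZ cells received 3 µM of the Ezh2 inhibitor EPZ6438 for 12 days, and K27M DMSO cells received the solvent DMSO for the same time. The common reference was 2 libraries of H3WT cells in DMSO (H3WT DMSO). All cells were grown with epidermal and basic fibroblast growth factors, and the labels name neither the clones nor whether replicates were separate cultures. Peak lists of the Polycomb proteins Suz12 and Ring1b, from DMSO cells with 1 list for each genotype, were used to describe the regions.

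Polycomb repressive complex PRC2 places H3K27me3 through its catalytic subunits Ezh2 and Ezh1, with Suz12 as a core subunit. Wide H3K27me3 domains lie over silent developmental genes, and Ring1b, the ubiquitin ligase of PRC1, often binds the same places. K27M histone is known to impair PRC2 across most of the genome even where much of the H3 is wild type, while EPZ6438 blocks the active site of Ezh2.

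Every H3WT-marked gene that kept a peak in both H3WT EPZ libraries also kept one in both K27M DMSO libraries, and the reverse held for few genes. A gene counted as marked where a peak reached within 1 kb of either of its ends, and as H3WT-marked where both H3WT DMSO libraries had such a peak. Of 21631 protein-coding genes 2303 were H3WT-marked (10.6%). A marked gene was kept in a group with a peak in both of its libraries and lost with a peak in neither. K27M DMSO kept 956 of the 2303 genes (41.5%) and H3WT EPZ kept 162 (7.03%). All 162 were among the 956, of which they made up 16.9%. K27M DMSO lost 429 genes (18.6%) and H3WT EPZ lost 2113 (91.7%), and all 429 were also lost in H3WT EPZ. The classes are counts of peak calls from lists that share the H3WT DMSO libraries, and no test over genes was made. They rest on replicate 1 for K27M: 918 genes had a peak in K27M DMSO replicate 2 alone and 0 in replicate 1 alone, so without replicate 1 the number kept was 1874. With peaks at gene starts alone, known for 111 of the 162 genes, 107 were kept in H3WT EPZ, all of them also in K27M DMSO.

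Promoters of 5 genes show what the classes mean at the level of sequence. They are Hoxd10 and Tfap2a for genes kept in both groups, Pax9 and Nr2f2 for genes kept in K27M DMSO and lost in H3WT EPZ, and Cbfa2t3 for genes lost in both. Hoxd10 patterns the posterior body axis, Tfap2a acts in neural crest and skin, Pax9 in tooth and thymus, Nr2f2 (COUP-TFII) in vessels and heart atria, and Cbfa2t3 is a transcriptional corepressor of blood cells. The 250 bases before each start are from RefSeq, build GRCm38.p6, written along the gene's strand, with each CG dinucleotide in capitals.
Hoxd10: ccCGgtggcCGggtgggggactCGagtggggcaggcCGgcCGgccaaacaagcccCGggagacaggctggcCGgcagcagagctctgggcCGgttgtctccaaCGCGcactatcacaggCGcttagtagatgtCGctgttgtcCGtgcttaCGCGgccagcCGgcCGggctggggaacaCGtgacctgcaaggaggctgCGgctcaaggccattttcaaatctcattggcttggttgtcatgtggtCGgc
Tfap2a: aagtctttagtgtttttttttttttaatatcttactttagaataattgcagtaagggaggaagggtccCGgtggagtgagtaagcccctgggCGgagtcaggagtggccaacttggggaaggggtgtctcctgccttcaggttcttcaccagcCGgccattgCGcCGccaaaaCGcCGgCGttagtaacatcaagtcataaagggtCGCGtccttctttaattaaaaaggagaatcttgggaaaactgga
Pax9: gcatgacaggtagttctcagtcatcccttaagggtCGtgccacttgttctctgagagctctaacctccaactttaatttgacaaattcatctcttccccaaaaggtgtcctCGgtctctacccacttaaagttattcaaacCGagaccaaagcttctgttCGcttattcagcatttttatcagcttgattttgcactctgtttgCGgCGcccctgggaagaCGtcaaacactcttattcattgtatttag
Nr2f2: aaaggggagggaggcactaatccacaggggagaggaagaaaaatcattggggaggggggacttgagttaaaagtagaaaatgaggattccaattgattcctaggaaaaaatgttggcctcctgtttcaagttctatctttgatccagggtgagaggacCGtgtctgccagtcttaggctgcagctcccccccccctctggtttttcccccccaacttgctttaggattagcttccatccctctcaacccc
Cbfa2t3: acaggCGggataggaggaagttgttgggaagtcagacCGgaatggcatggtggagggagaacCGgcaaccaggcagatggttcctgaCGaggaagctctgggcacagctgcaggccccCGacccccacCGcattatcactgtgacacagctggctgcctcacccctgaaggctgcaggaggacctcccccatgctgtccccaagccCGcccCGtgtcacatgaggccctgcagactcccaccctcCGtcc
The Hoxd10 window (chr2:74691641-74691890, plus strand) and the Tfap2a window (chr13:40734921-40735170, minus strand) lay wholly under peaks in both K27M DMSO, both H3WT EPZ and both H3WT DMSO libraries. The Pax9 window (chr12:56695221-56695470, plus strand) and the Nr2f2 window (chr7:70366747-70366996, minus strand) were wholly covered in both K27M DMSO libraries, had 0 bases covered in either H3WT EPZ library and were wholly covered in both H3WT DMSO libraries. The Cbfa2t3 window (chr8:122699110-122699359, minus strand) had 0 bases covered in K27M DMSO and in H3WT EPZ, against 152 and 250 bases in H3WT DMSO replicates 1 and 2. The windows held 20 CG for Hoxd10, 10 for Tfap2a, 7 for Pax9, 1 for Nr2f2 and 9 for Cbfa2t3. Of all 32851 promoters in the table, 92.1% held at least 1. CG reads the same on both strands. CG content is not compared between the classes here, since the table held a promoter for only 111 of the 162 genes kept in both groups, under 80%.

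K27M DMSO left far more of the mark in the peak lists than H3WT EPZ did. Peaks covered 13.5 and 65.5 Mb in K27M DMSO replicates 1 and 2, against 2.36 and 1.98 Mb in H3WT EPZ replicates 1 and 2, with 43.6 and 217 Mb in H3WT DMSO. Each K27M DMSO library lay above both H3WT EPZ libraries, and the K27M DMSO libraries differed 4.87-fold from each other. The mean was 39.5 ± 36.8 Mb in K27M DMSO and 2.17 ± 0.270 Mb in H3WT EPZ, with 130 ± 123 Mb in H3WT DMSO (SD, n = 2 each). On the log2 scale K27M DMSO exceeded H3WT EPZ by 3.78, a ratio of geometric means of 13.7. The two-sided exact permutation test gave p = 0.333, the smallest p that 2 libraries against 2 allow, so no difference here can pass 0.05. Within a replicate number the ratio was 5.70 for replicate 1 and 33.1 for replicate 2. Relative to H3WT DMSO of the same number, covered length was 3.24-fold and 3.31-fold lower in K27M DMSO and 18.5-fold and 110-fold lower in H3WT EPZ.

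Peak number showed the same order. K27M DMSO had 2351 and 17980 peaks, H3WT EPZ 278 and 271, and H3WT DMSO 13358 and 59899. The log2 difference between K27M DMSO and H3WT EPZ was 4.57 (exact permutation p = 0.333, again the smallest possible). The peaks that H3WT EPZ did keep were wide. Median peak width was 2.74 and 1.92 kb in K27M DMSO, against 5.37 and 4.47 kb in H3WT EPZ, with 1.78 and 1.98 kb in H3WT DMSO. Peaks of at least 10 kb held 53.5% and 33.8% of the covered length in K27M DMSO and 66.3% and 62.8% in H3WT EPZ. The X chromosome held 3.54% and 36.4% of the length in K27M DMSO, against 0% in both H3WT EPZ libraries and 10.0% and 30.9% in H3WT DMSO. Read depth is unknown, so how far it sets these lengths was not tested.

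**Figure D1:**
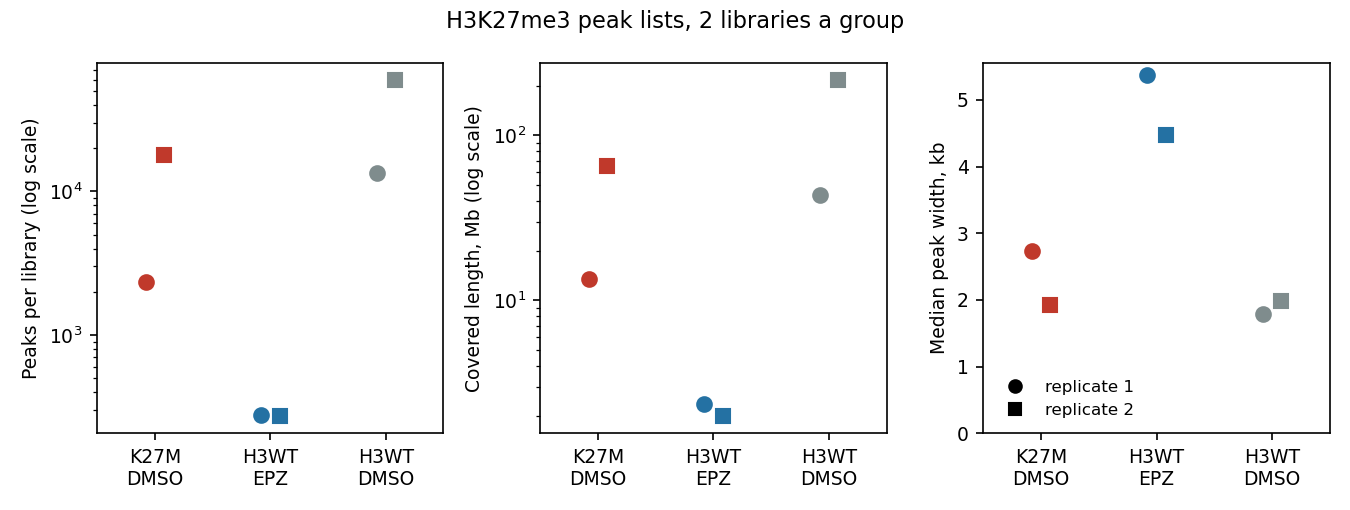
Peak number (log scale), covered length in Mb (log scale) and median peak width in kb for each library, with circles for replicate 1 and squares for replicate 2. Both K27M DMSO libraries (2351 and 17980 peaks) sit above both H3WT EPZ libraries (278 and 271 peaks) in number and length and below them in width.

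The H3WT EPZ peaks nested in the K27M DMSO peaks almost completely. Of the length of H3WT EPZ replicate 1, 99.3% lay inside K27M DMSO replicate 1 peaks and 99.9% inside replicate 2 peaks. For H3WT EPZ replicate 2 the shares were 98.8% and 99.5%. In the other direction, 17.4% and 14.5% of the length of K27M DMSO replicate 1 lay inside H3WT EPZ replicates 1 and 2, and 3.6% and 3.01% of the length of K27M DMSO replicate 2. Between the H3WT EPZ libraries, 81.5% of the length of replicate 1 lay inside the shorter replicate 2 and 97.2% of replicate 2 inside replicate 1. A share inside a longer list has more room to be high, so these shares are not set against each other. Nearly all of the H3WT EPZ length also lay under H3WT DMSO peaks of the same replicate number (99.8% and 99.6%), as did most of the K27M DMSO length (94.6% and 95.4%).

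Regions under peaks of both libraries of a group gave the same picture. K27M DMSO had 2350 such shared regions and H3WT EPZ had 252. Of the 252 H3WT EPZ regions, 247 overlapped a shared K27M DMSO region, 244 lay wholly inside, and 6.7 kb in total lay outside. Only 176 of the 2350 K27M DMSO regions (7.49%) overlapped a shared H3WT EPZ region. K27M DMSO replicate 1 itself lay 99.96% inside replicate 2, so the shared K27M DMSO regions are in effect its replicate 1 peaks.

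The H3WT EPZ peaks outside the nest were few and narrow. All 278 peaks of H3WT EPZ replicate 1 met a K27M DMSO peak in at least 1 library, as did 266 of the 271 of replicate 2. The 5 others were 1 at Aida (chr1:183299061-183300115), 1 at Slc30a4, a zinc transporter gene (chr2:122680936-122682533), and 3 at Sfi1, a centrosomal gene (chr11:3184236-3185940, chr11:3189592-3190887 and chr11:3192138-3195917). All 5 had no peak in H3WT EPZ replicate 1 and lay under K27M EPZ replicate 2 peaks, and 4 of them had no H3WT DMSO peak either. A further group was missed by K27M DMSO replicate 1 alone. It held the 5 shared H3WT EPZ regions near Olfr1274, Prdm16, Tbx5 (chr5:119802551-119804335) and, for 2 regions, Gdf10, all at least partly under K27M DMSO replicate 2 peaks. Tbx5 is a limb and heart T-box factor, and its gene ends had no peak in either H3WT EPZ library.

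The share of H3WT domains with a peak left was higher among wide domains in both groups, and at each width lower in H3WT EPZ. A domain was a stretch of at least 1 kb under peaks of both H3WT DMSO libraries, which gave 12670 domains over 42.5 Mb. K27M DMSO kept a peak of both libraries in 1912 domains (15.1%, exact 95% interval 14.5 to 15.7%) and H3WT EPZ in 177 (1.40%, 1.20 to 1.62%), intervals that cover the counting of domains only. Of domains 1 to 2 kb wide, K27M DMSO kept 2.20% of 7191 and H3WT EPZ 0.0139%. At 5 to 10 kb, K27M DMSO kept 52.6% of 1202 and H3WT EPZ 0.749%. At 20 to 40 kb, K27M DMSO kept 97.7% of 171 and H3WT EPZ 52.6%, and above 40 kb K27M DMSO kept all 37 and H3WT EPZ 70.3%. Kept here needs an overlap of 1 bp, which a wide domain meets more readily. When the peaks of both libraries each had to cover at least 50% of a domain, K27M DMSO kept 1269 domains and H3WT EPZ 38. Under this rule, split by width after seeing the data, K27M DMSO kept 30.1% and H3WT EPZ 0% at 5 to 10 kb. At 20 to 40 kb K27M DMSO kept 81.9% and H3WT EPZ 10.5%, and above 40 kb K27M DMSO kept 94.6% and H3WT EPZ 27%. With peaks of at least 3 kb K27M DMSO kept 1001, and without its replicate 1 it kept 8155.

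**Figure D2:**
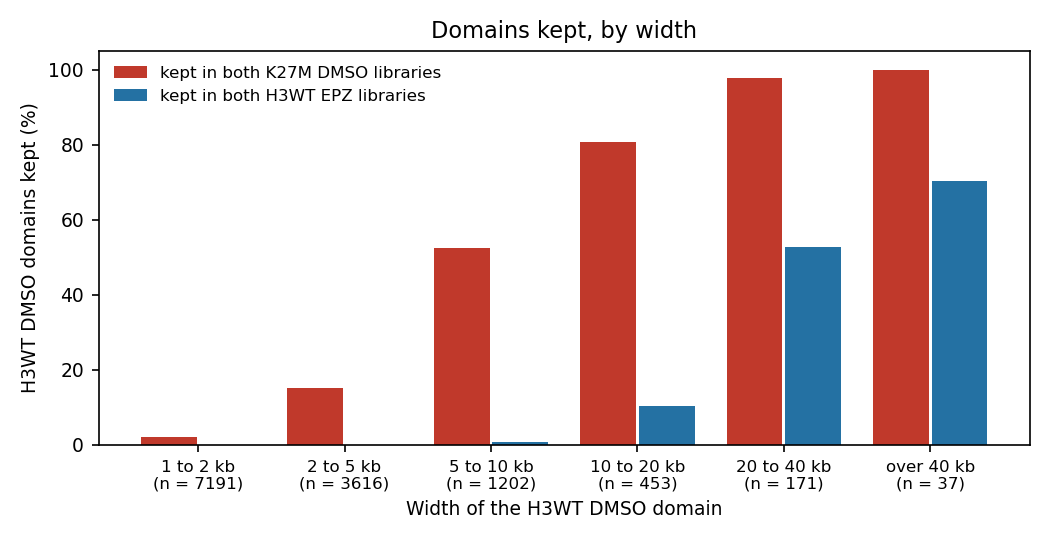
Share of H3WT DMSO domains (%) that kept a peak in both K27M DMSO libraries (red) or both H3WT EPZ libraries (blue), by domain width, where an overlap of 1 bp counts, with the number of domains under each bin. The red bars reach 52.6% at 5 to 10 kb and the blue bars 52.6% at 20 to 40 kb.

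Most domains fell into classes that differed in width and position. The 174 domains kept in both groups had a median width of 25.6 kb, and 83.9% of them reached within 1 kb of a gene end. The 1696 kept in K27M DMSO and lost in H3WT EPZ had a median of 5.82 kb, with 44.7% near a gene end. The 6237 with a peak in K27M DMSO replicate 2 alone and in neither H3WT EPZ library had a median of 1.93 kb (14.8% near a gene end). The 4515 lost in both had a median of 1.39 kb (9.35%). A further 42 domains kept in K27M DMSO had a peak in 1 H3WT EPZ library, replicate 1 in 36 of them. On the X chromosome lay 0 of the 174 domains kept in both, 139 of the 1696, 1520 of the 6237 and 588 of the 4515, against 2247 of all 12670. The last 6 domains, near Olfr1274, Fam184b (2 domains), Tbx5, Asic2 and Gdf10, had a peak in at least 1 H3WT EPZ library and lacked K27M DMSO replicate 1.

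Where a domain was kept in both groups, H3WT EPZ kept a smaller part of it. Over the 174 domains, the median share under peaks (mean of the 2 libraries) was 93.7% in K27M DMSO and 35.4% in H3WT EPZ. The share was smaller in H3WT EPZ in 173 of the 174. K27M DMSO covered at least 90% of 114 domains and H3WT EPZ of 4, and under 50% was covered in 1 domain in K27M DMSO and in 127 in H3WT EPZ. From the side of K27M DMSO, the replicate 1 peaks with a shared H3WT EPZ region had a median width of 19.6 kb, against 2.47 kb for those without. A median of 41.4% of their width lay under it.

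Most H3WT EPZ regions held Suz12 and Ring1b peaks. Of the 2169 shared K27M DMSO regions at least 1 kb wide without an H3WT EPZ region, 231 (10.7%) overlapped a Suz12 peak of H3WT cells and 441 (20.3%) a Ring1b peak of H3WT cells. Of the 242 shared H3WT EPZ regions of that width, 192 (79.3%) and 206 (85.1%) did. The median distance between region centre and the nearest H3WT Suz12 peak centre was 680 kb for these K27M DMSO regions and 1.02 kb for the H3WT EPZ regions. These sets differ in width, so domains of like width were compared next. Among the K27M DMSO-kept domains of 10 to 20 kb, a Suz12 peak of H3WT cells lay in 87.2% of the 47 kept in H3WT EPZ (exact 95% interval 74.3 to 95.2%) and in 20.1% of the 299 lost there (15.7 to 25.1%). At 20 to 40 kb the shares were 86.7% of 90 kept and 23.1% of 65 lost. Above 40 kb they were 96.2% of 26 kept and 22.2% of 9 lost. Ring1b peaks of H3WT cells differed less: 78.7% against 40.1% at 10 to 20 kb and 94.4% against 60.0% at 20 to 40 kb.

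**Figure D3:**
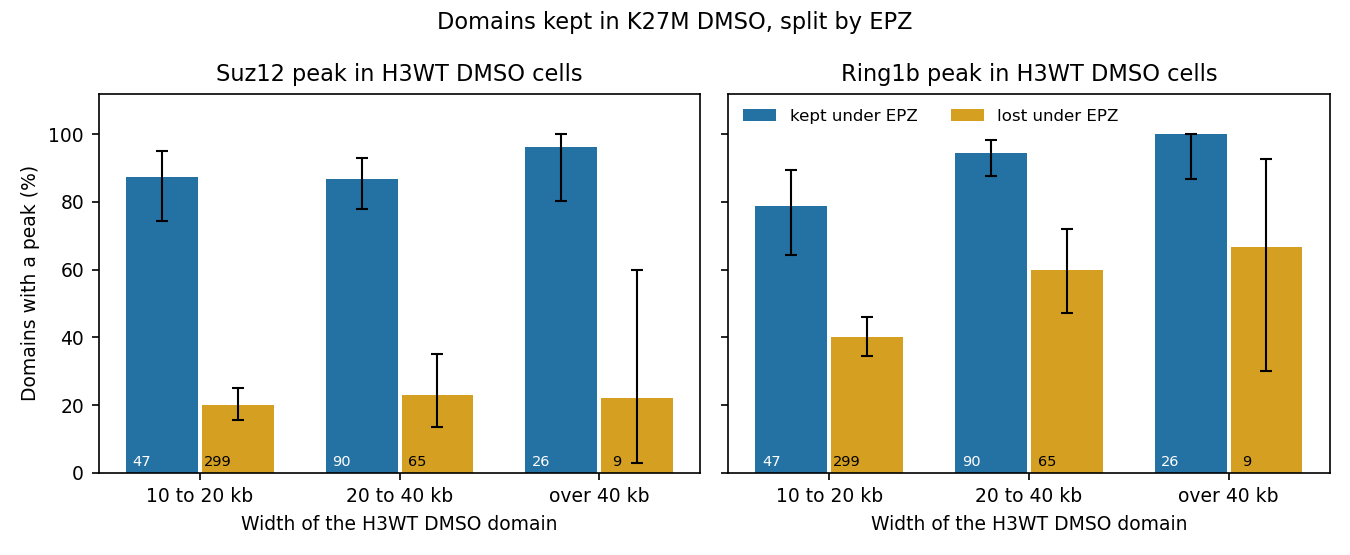
Share of H3WT DMSO domains (%) with a Suz12 (left) or Ring1b (right) peak of H3WT cells, for domains kept in both K27M DMSO libraries, split into those kept (blue) and lost (yellow) in H3WT EPZ. Bars carry exact 95% intervals and the number of domains, and the Suz12 share was 87.2% against 20.1% at 10 to 20 kb.

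With Suz12 peaks of K27M cells in place of those of H3WT cells, the gap was smaller. At 10 to 20 kb they lay in 72.3% of the domains kept in H3WT EPZ and in 48.2% of those lost there. At 20 to 40 kb the shares were 85.6% and 53.8%, and above 40 kb 96.2% and 55.6%. In the lost domains the share was thus higher at each of these widths than with Suz12 of H3WT cells. In the kept domains it was lower at 10 to 20 kb and about the same in wider ones. The Suz12 list of K27M cells was longer (1252 peaks) than that of H3WT cells (631), with 1 library each, so the difference between them has no replicate check. Of the Suz12 peaks of K27M cells, 92.9% lay in shared K27M DMSO regions and 27.5% in shared H3WT EPZ regions, and of those of H3WT cells 95.6% and 52.5%.

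The same Suz12 and Ring1b peaks were also counted at gene ends, which is not a separate observation of the split. The gene classes were not matched for width. Median covered length in H3WT DMSO was 23.4 kb for genes kept in both groups. It was 12.9 kb for those kept in K27M DMSO and lost in H3WT EPZ. Among the 162 genes kept in both groups, 143 (88.3%) had a Suz12 peak in K27M cells and 150 (92.6%) in H3WT cells. Among the 766 kept in K27M DMSO and lost in H3WT EPZ, 367 (47.9%) had one in K27M cells and 173 (22.6%) in H3WT cells. In 250 of the 766 (32.6%) Suz12 was called in K27M cells and not in H3WT cells, against 5 of the 162. Few of the 162 could show this pattern, since 150 had a Suz12 peak in H3WT cells. It was found at 36 of the 918 marked genes with a peak in K27M DMSO replicate 2 alone (3.92%). Of the 28 kept in K27M DMSO with a peak in 1 H3WT EPZ library, 6 had it (21.4%). Of the 429 genes lost in both, 0 had a Suz12 peak in K27M cells and 2 in H3WT cells. Ring1b peaks of K27M and H3WT cells lay at 319 (41.6%) and 258 (33.7%) of the 766 genes, and at 154 (95.1%) and 149 (92.0%) of the 162.

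Hox genes, which give cells their position along the body axis, held the widest H3WT EPZ regions. All 37 H3WT-marked members of 39 were kept in K27M DMSO and 31 of 37 in H3WT EPZ, against 41.5% and 7.03% of all marked genes. The 10 widest shared H3WT EPZ regions lay over Hoxc13 to Hoxc9 (79.9 kb, chr15:102908006-102987905), Hoxa9 to Hoxa13 (47.1 kb), Hoxb9 to Hoxb5 (45.1 kb) and 3 parts of the Hoxd cluster. The others lay over Zdbf2, an imprinted gene (36.2 kb), Pax3 (30.9 kb), Hand2 (29.7 kb) and Nkx2-3 (22.8 kb). All 10 lay wholly under peaks in both K27M DMSO libraries.

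The 4 clusters differed in how much H3WT EPZ left. Of the 116 kb of Hoxc, 100% was covered in both K27M DMSO libraries, 98.7% and 94.6% in H3WT EPZ, with 100% in both H3WT DMSO libraries. Of the 96.9 kb of Hoxd, it was 100% in both K27M DMSO libraries, 82.5% and 80.6% in H3WT EPZ, with 100% in both H3WT DMSO libraries. For Hoxb (174 kb) the shares were 70.4% and 79.3% in K27M DMSO, 67.2% and 59.2% in H3WT EPZ, with 77.6% and 87.1% in H3WT DMSO. Hoxa stood apart: of its 106 kb, 97.9% and 100% was covered in K27M DMSO, 41.7% and 39.5% in H3WT EPZ, with 75.4% and 90.9% in H3WT DMSO. H3WT EPZ kept the side of Hoxa from Hoxa7 to Hoxa13, and Hoxa4, Hoxa5 and Hoxa6 at the anterior side were lost. Hoxb1 and Hoxd1, the other Hox genes lost in H3WT EPZ, also lie at the anterior ends of their clusters, and Hoxa3 had a peak in 1 H3WT EPZ library. In Hoxa, Suz12 covered 88.6 kb in K27M cells and 32.5 kb in H3WT cells, while in Hoxd it covered 41.5 kb in K27M cells and 64.9 kb in H3WT cells.

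**Figure D4:**
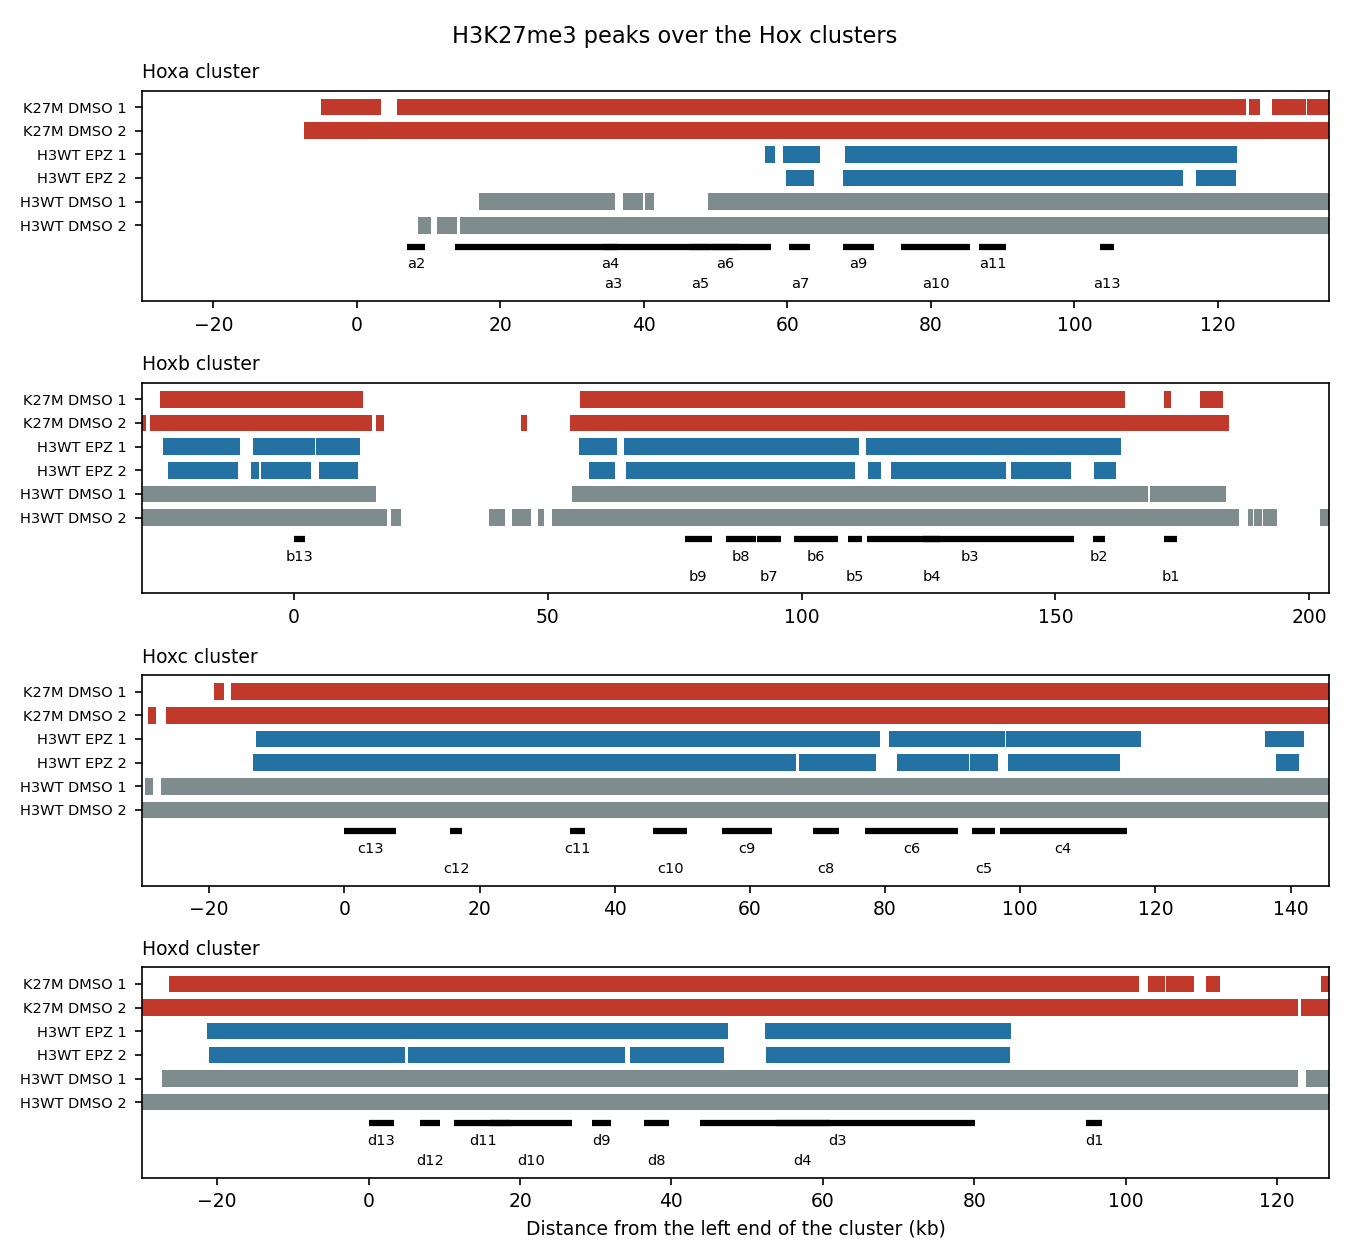
H3K27me3 peaks (bars) of each library over the 4 Hox clusters, drawn by distance in kb from the left end of the cluster, with the genes shown in black below. H3WT EPZ peaks cover nearly all of Hoxc and 41.7% and 39.5% of Hoxa, where they leave out Hoxa2 to Hoxa6 almost wholly.

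Among single Hox genes, covered length within 10 kb of either gene end was 30.8 and 30.8 kb at Hoxd10 in K27M DMSO, 30.8 and 30.2 kb in H3WT EPZ, with 30.8 and 30.8 kb in H3WT DMSO. At Hoxa10 it was 29.7 kb in both K27M DMSO libraries, 27.4 and 27.8 kb in H3WT EPZ, with 29.7 kb in both H3WT DMSO libraries. Within these windows the 2 genes were covered about as widely in all 3 groups. Covered length at a gene cannot exceed its window. The windows of Hoxd10 and Hoxa10 were full in K27M DMSO and H3WT DMSO, so equal values there do not show equal domain width. Hoxa6 had 23.8 kb in both K27M DMSO libraries, 5.24 and 3.54 kb in H3WT EPZ, with 16.0 and 23.8 kb in H3WT DMSO. At Hoxa6 the H3WT EPZ libraries were below all others.

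The Hox clusters also carry microRNA genes, and 5 of the 6 hairpins under shared H3WT EPZ peaks were of this kind. RefSeq lists 1005 hairpins, of which 42 lay in peaks of both H3WT DMSO libraries, 17 of these also in both K27M DMSO libraries and 6 in both H3WT EPZ libraries. The mature sequences show 2 seed families (bases 2 to 8 in capitals), miR-10 with the seed ACCCUGU and miR-196 with the seed AGGUAGU, both known to target Hox transcripts. They come from RefSeq, build GRCm38.p6.
mmu-miR-10a-5p: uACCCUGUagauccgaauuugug
mmu-miR-10b-5p: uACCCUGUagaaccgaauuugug
mmu-miR-196a-5p: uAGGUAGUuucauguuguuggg
mmu-miR-196b-5p: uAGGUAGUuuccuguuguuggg
Their genes are Mir10a (chr11:96317165-96317274) in Hoxb, Mir10b (chr2:74726070-74726137) in Hoxd, Mir196b (chr6:52230081-52230165) in Hoxa, and Mir196a-1 (chr11:96265164-96265265) and Mir196a-2 (chr15:102973350-102973434) in Hoxb and Hoxc, which give the same miR-196a-5p. Hairpins kept in K27M DMSO and not in H3WT EPZ included Mir137, Mir375, Mir96 and Mir183.

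Other lists of developmental factors were kept at 70% or more in K27M DMSO and at 20% to 71.4% in H3WT EPZ, against 41.5% and 7.03% of all marked genes. Of H3WT-marked genes, K27M DMSO and H3WT EPZ kept 6 and 5 of 7 paired-box factors, 18 and 13 of 20 forkhead factors, 5 and 3 of 5 Gata factors, and 11 and 6 of 12 proneural bHLH factors. For LIM homeobox factors the counts were 12 and 5 of 12, for Nkx, Dlx, Irx and sine oculis-type homeobox factors 29 and 12 of 30, and for T-box factors 9 and 2 of 10. Mesoderm and muscle bHLH factors had 7 and 2 of 10. The lists were chosen with earlier results of these data known, and the counts describe them without a test.

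**Figure D5:**
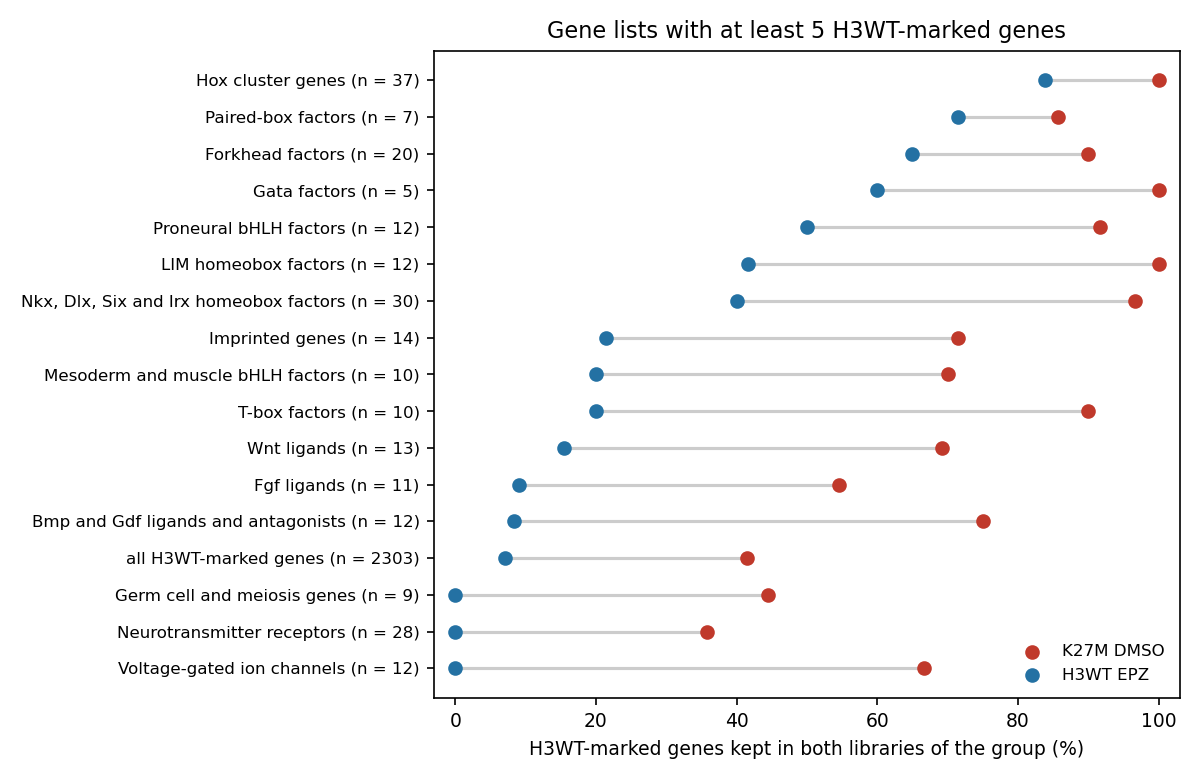
Share of H3WT-marked genes (%) kept in both K27M DMSO libraries (red) and both H3WT EPZ libraries (blue), for gene lists with at least 5 H3WT-marked genes. K27M DMSO lies above H3WT EPZ in each list drawn, with the narrowest gaps in paired-box factors (6 and 5 of 7) and Hox genes (37 and 31 of 37).

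Hand2, a bHLH factor of heart and limb, had 23.5 kb covered in all 6 libraries, which is its whole window. Isl1, a LIM factor of motor neurons and heart, had 29.7 and 30.6 kb in K27M DMSO, 22.7 and 20.4 kb in H3WT EPZ, with 29.2 and 29.9 kb in H3WT DMSO. At these genes a wide core stayed under peaks in H3WT EPZ. Tfap2a kept a smaller part, with 39.5 and 40 kb in K27M DMSO, 28.5 and 22.5 kb in H3WT EPZ, with 40 kb in both H3WT DMSO libraries. Foxa1, a pioneer factor of endoderm, had 26.7 and 27 kb in K27M DMSO, 17.6 and 15.6 kb in H3WT EPZ, with 26.7 and 27 kb in H3WT DMSO. Both had fewer kb in each H3WT EPZ library than in any of the other 4.

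Related factors fell on different sides. Of the paired-box factors, Pax1, Pax2, Pax3, Pax5 and Pax7 were kept in both groups. Pax9 was not: it had 36.1 and 38.2 kb in K27M DMSO, 0 kb in both H3WT EPZ libraries, with 35.8 and 39.8 kb in H3WT DMSO. Six2, Six3 and Six6, factors of eye and kidney precursors, were kept in both groups, while all 6 Irx genes were kept in K27M DMSO and lost in H3WT EPZ. Irx5 had 23.0 and 23.7 kb in K27M DMSO, 0 kb in both H3WT EPZ libraries, with 9.41 and 16.4 kb in H3WT DMSO. It was thus covered more widely in K27M DMSO than in H3WT DMSO. Of the proneural factors, Neurod2, Atoh1, Olig3 and Ptf1a were kept in both groups, and Neurog1, Neurog2 and Neurod1 were lost in H3WT EPZ. Neurog2 had 22.9 kb in both K27M DMSO libraries, 0 kb in both H3WT EPZ libraries, with 19.5 and 22.9 kb in H3WT DMSO.

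At Nr2f2, Otx2, Eomes and Lhx9, all lost in H3WT EPZ, each K27M DMSO library covered at least as much as the H3WT DMSO library of the same number. Nr2f2 had 34.8 kb, its whole window, in both K27M DMSO libraries, 1.88 and 0 kb in H3WT EPZ, with 34.8 kb in both H3WT DMSO libraries. Otx2, a forebrain and eye homeobox factor, had 30.5 and 30.9 kb in K27M DMSO, 2.59 and 0 kb in H3WT EPZ, with 24.6 and 30.1 kb in H3WT DMSO. Eomes, a T-box factor of mesoderm and cortical progenitors, had 21.6 and 26.0 kb in K27M DMSO, 0 kb in both H3WT EPZ libraries, with 8.39 and 23.8 kb in H3WT DMSO. Lhx9, a LIM factor of gonad and brain, had no peak at its gene ends in H3WT EPZ but had 12.7 and 6.27 kb within 10 kb of them, against 31.2 and 31.9 kb in K27M DMSO and 29.5 and 31.9 kb in H3WT DMSO. All 4 had a Suz12 peak in K27M cells and not in H3WT cells, with Ring1b peaks in both. They were picked after their values were seen, and 250 of the 766 genes of their class (32.6%) had this Suz12 pattern. Genes that met the same condition on covered length and did not have it included Irx5, Tal1 and Hand1. Irx5 and Hand1 had a Suz12 peak in neither genotype and Tal1 in both.

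Loss in H3WT EPZ was not limited to narrow peaks. The widest K27M DMSO replicate 1 peak without any H3WT EPZ peak spanned 57.8 kb at Lrba and Mab21l2 (chr3:86522505-86580284), where Suz12 covered 8.09 kb in K27M cells and 0 kb in H3WT cells. Only 5.67 kb of it lay under peaks in H3WT DMSO replicate 1, against 56.7 kb in replicate 2, so most of it was not an H3WT domain. The wider Iqch peak named next had 55.8 and 56.2 kb under H3WT DMSO peaks. The next lay at Iqch (56.2 and 40.1 kb), Pax9 and Slc25a21 (39.6 kb), Zfhx4 (36.5 kb), Casz1 (35.9 kb), Nkx3-2 (33.6 kb) and Tbr1 (31.8 kb), the last a T-box factor of cortical neurons. Of these 8 peaks, a Suz12 peak of H3WT cells lay in that at Zfhx4 alone. Such a peak lay in 10.7% of all 2169 shared K27M DMSO regions at least 1 kb wide without an H3WT EPZ region. Among K27M DMSO-kept domains of 20 to 40 kb lost in H3WT EPZ it lay in 23.1% of 65. The count among the 8 is thus near the background.

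Cdkn2a, which encodes the cell cycle inhibitors p16 and p19ARF (chr4:89274473-89294619), was on the side that K27M kept. It had 29.4 and 30.6 kb in K27M DMSO, 0 kb in both H3WT EPZ libraries, with 22.9 and 29.6 kb in H3WT DMSO. Suz12 was called there in K27M cells and not in H3WT cells, and Ring1b in both. Cdkn1c, the imprinted inhibitor p57, had 2.60 and 16.1 kb in K27M DMSO, 0 kb in both H3WT EPZ libraries, with 11.4 and 22.5 kb in H3WT DMSO, with neither Suz12 nor Ring1b. Both marked cell cycle inhibitors of the list of 7 were thus kept in K27M DMSO and lost in H3WT EPZ. Of all 2303 marked genes 766 (33.3%) fell into this class and 91.7% were lost in H3WT EPZ, so 2 genes say little beyond that background. Pdgfra, the receptor for PDGF, was not H3WT-marked, as replicate 1 had no peak at its ends. It had 4.60 and 9.63 kb in K27M DMSO, 0 kb in both H3WT EPZ libraries, with 1.49 and 3.99 kb in H3WT DMSO. At Ezh2 the covered length was 0 kb in all 6 libraries.

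Signalling ligands were lost in H3WT EPZ no more often than marked genes in general. They were lost there in 11 of 13 (Wnt), 9 of 11 (Fgf) and 10 of 12 (Bmp and Gdf), against 91.7% of all marked genes. K27M DMSO kept 41.5% of all marked genes and H3WT EPZ kept 7.03%. Of marked Wnt ligands they kept 9 and 2 of 13 (69.2% and 15.4%). Of Fgf ligands they kept 6 and 1 of 11 (54.5% and 9.09%). Of Bmp and Gdf ligands and antagonists they kept 9 and 1 of 12 (75% and 8.33%). Those kept in H3WT EPZ were Wnt1, Wnt3a, Fgf4 and Gdf7. Wnt1, which patterns the midbrain, had 14.8 and 18 kb in K27M DMSO, 3.43 and 2.03 kb in H3WT EPZ, with 15.2 and 18.2 kb in H3WT DMSO. Wnt10a had 25.2 and 29.7 kb in K27M DMSO, 0 kb in both H3WT EPZ libraries, with 30.4 and 31.0 kb in H3WT DMSO. Wnt1 was thus kept in H3WT EPZ and Wnt10a was not. Wnt10a had the greater covered length in H3WT DMSO, but it is the longer gene and so has the wider window.

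Lists of ion channel, receptor and germ cell genes had 0 members kept in H3WT EPZ, where 7.03% of all marked genes were kept, so with lists of this size 0 is near the background. K27M DMSO and H3WT EPZ kept 8 and 0 of 12 marked voltage-gated ion channels and 10 and 0 of 28 neurotransmitter receptors. Of germ cell and meiosis genes they kept 4 and 0 of 9. In K27M DMSO these shares were 66.7%, 35.7% and 44.4%, against 41.5% of all marked genes. Receptors and germ cell genes were thus near that background, and channels above it. The share of receptors kept in K27M DMSO rests on its replicate 1, since 15 of the 28 had a peak in replicate 2 alone. Their median covered length was 3.03 kb in K27M DMSO, 0 kb in H3WT EPZ and 9.64 kb in H3WT DMSO. Over all 2303 marked genes the medians were 3.85, 0 and 10.0 kb in the same order of groups. Grin2b, a subunit of the NMDA receptor, had 6.40 and 11.2 kb in K27M DMSO, 0 kb in both H3WT EPZ libraries, with 10.2 and 15.6 kb in H3WT DMSO. Imprinted genes had 10 and 3 of 14 kept (71.4% and 21.4%), both above the background. The 3 kept in H3WT EPZ were Igf2, Grb10 and Gnas. Igf2, a fetal growth factor, had 14.4 and 15.6 kb in K27M DMSO, 7.93 and 7.64 kb in H3WT EPZ, with 17.5 and 25.1 kb in H3WT DMSO, without a Suz12 peak at its ends in either genotype.

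The genes lost in both groups included Cbfa2t3 on chromosome 8, with 2.77 and 14.7 kb in K27M DMSO, 0 kb in both H3WT EPZ libraries, with 26.2 and 30.1 kb in H3WT DMSO. Sycp1 on chromosome 3, which pairs chromosomes in meiosis, had 0 and 1.09 kb in K27M DMSO, 0 kb in both H3WT EPZ libraries, with 13.7 and 28.0 kb in H3WT DMSO. In these 2 genes the peaks left in K27M DMSO lay away from the gene ends. Dazl, Mov10l1 and Rhox13 of germ cells, the ligands Bmp2 and Wnt2, the muscle factor Msc and the receptors Grik5, Glra1 and Chrna7 were also lost in both.

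The last lists were H3WT-marked no more often than the 10.6% of all protein-coding genes. Of 30 neural stem and glial progenitor genes, the markers of the labelled cell type, 2 were H3WT-marked (Id4 and Prom1), and 1 was kept in K27M DMSO and 0 in H3WT EPZ. None of 30 housekeeping genes was H3WT-marked. Of 30 Polycomb subunits 3 were marked, Pcgf1 and Cbx2 were kept in K27M DMSO, and 0 were kept in H3WT EPZ.

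The genes with any H3WT EPZ peak show how far the nesting holds when calls are loosened. A peak in at least 1 H3WT EPZ library was present at 191 genes, and 190 of them had a peak in both K27M DMSO libraries. The exception was Slc30a4, at which H3WT EPZ replicate 2 had a peak and no K27M DMSO or H3WT DMSO library did.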

How the data were processed

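H3K27me3, Suz12 and Ring1b ChIP-seq peak lists of 12 of the 14 samples were used, and the 2 IgG samples were not analysed here. Per the submitters' processing notes, Bowtie 1.1.2 and the build mm10 were used. No peak caller, threshold, control or read depth is given in the sources used here. The authors deposited 1 list per library with chromosome, start and end of each peak, and the deposited score was 0 in all 100144 lines, so a peak has no height and longer lists may reflect depth. Groups and replicate numbers came from the sample titles and descriptions.

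Touching or overlapping peaks of a library were merged (21 peaks). Covered length is the sum of merged widths. Genes are 21631 RefSeq protein-coding genes of GRCm38.p6, which has the chromosomes of mm10. Overlap meant at least 1 bp. Log2 values per library were compared by exact permutation, two-sided (Python 3.11.15, numpy 2.4.6, scipy 1.17.1). As nothing says that replicates are separate cultures, p-values speak of the spread of these libraries alone, possibly technical. Intervals on shares are exact (Clopper-Pearson, 95%). The interval code was tested on simulated data.

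Named genes were those of each class with the largest covered length, at most 1 per 200 kb, up to 2 per gene list and class, and Cdkn2a, Cdkn1c, Pdgfra and Ezh2. Lists counted in the text also name members by class, chosen after their values were seen, and not every gene the rule takes is reported. Members and the 20 gene lists were chosen with earlier results of these data known. Alternatives changed peak width, gene window, overlap, chromosome X and the libraries used.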

Additional observations from a re-analysis of the deposited data

How the results depend on the processing

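No result changed direction under any alternative run, and the number of genes kept in H3WT EPZ without K27M DMSO was 0 in each of them. Of 96 comparison values, 84 stayed within the limits set and 12 moved, as did 38 of 480 list counts and 7 of 450 differences at named genes. Leaving out 1 library of K27M DMSO, H3WT EPZ or H3WT DMSO gave 956 to 1874 genes kept in K27M DMSO, 162 to 188 in H3WT EPZ and in both, 1528 to 8155 domains kept in K27M DMSO and 167 to 213 in H3WT EPZ. It gave 98.8% to 99.97% of shared H3WT EPZ length inside K27M DMSO regions and 2.94% to 17.4% in the reverse direction. The log2 differences ran from 2.64 to 4.92 for covered length and from 3.10 to 6.03 for peak number. The highest counts for K27M DMSO came without its replicate 1, where 2.94% of its length lay in H3WT EPZ regions. Counting a peak in either library gave 1874 genes kept in K27M DMSO. Peaks of at least 3 kb left 1001 domains kept in K27M DMSO. Gene starts alone, known for 17274 of the 21631 genes and 111 of the 162, gave 107 genes kept in H3WT EPZ and 107 in both. Requiring overlap of 50% gave 1269 domains kept in K27M DMSO and 38 in H3WT EPZ, and placed 97.6% of shared H3WT EPZ regions in K27M DMSO regions and 2.77% in reverse. With a replicate block the log2 differences were unchanged at 3.78 and 4.57, with exact permutation p = 0.5, the smallest that 2 pairs allow. K27M DMSO and H3WT EPZ libraries of the same number did not deviate together (correlation 0.0626 over 2303 genes). Most of these genes had no covered length in H3WT EPZ, which by itself holds that value low. Over the 238 genes with some, the correlation was 0.0368. The DMSO groups did differ alike by number, with replicate 2 over replicate 1 at 4.87 in K27M DMSO and 4.98 in H3WT DMSO for covered length. With 2 libraries a group and unknown depth, a missing peak says only that none was called.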

Other observations

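The inhibitor also acted on K27M cells, and the result can be set beside the 2 groups compared above. K27M cells under EPZ6438 (K27M EPZ) had 201 and 340 peaks over 1.1 and 2.09 Mb in replicates 1 and 2, against 278 and 271 peaks over 2.36 and 1.98 Mb in H3WT EPZ. A peak at a gene end was called in both K27M EPZ libraries at 107 genes and in both H3WT EPZ libraries at 162. In the Hoxb cluster K27M EPZ peaks covered 16.2% and 39.5%, against 67.2% and 59.2% in H3WT EPZ. In Hoxa they covered 36.1% and 53.2%, against 41.7% and 39.5% in H3WT EPZ. Hand2 had 20.2 and 23.5 kb covered in K27M EPZ and 23.5 kb in both H3WT EPZ libraries. Tfap2a had 0 and 5.79 kb in K27M EPZ, against 28.5 and 22.5 kb in H3WT EPZ. Otx2 had 9.14 and 12.7 kb in K27M EPZ, against 2.59 and 0 kb in H3WT EPZ. These values are given without a test.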
